A study of Drosophila melanogaster with 12 samples.

Results

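Gene expression in larval eye discs that expressed a constitutively active Ras, RasV12, was compared with that in control discs. The genes described were those with status OK in the authors' test and at least 1 FPKM in both groups. FPKM is the number of sequenced fragments scaled for transcript length and library size. This left 8962 of 15904 gene rows, and 10996 rows had been tested. Each group comprised 3 samples, each prepared from 30 pairs of eye discs of wandering larvae in the third instar. The control genotype was w1118; sev-GAL4/UAS-GFP; dco2/+. The RasV12 genotype added UAS-RasV12 opposite dco2. All 6 samples thus shared the w1118 background, a mutation of the eye colour gene white, the sev-GAL4 driver, UAS-GFP and dco2, an allele of the casein kinase gene dco. The sev-GAL4 driver acts in the sevenless-expressing subset of disc cells, while the RNA came from whole discs. Stranded total RNA libraries depleted of ribosomal RNA were read as 50 bp pairs, and read depth is unknown because the deposited files give FPKM. They hold 1 pooled FPKM per gene and group, so no SD stands beside a level. Whether a group's samples came from separate crosses is not in the labels, so a p-value measures the spread between 3 preparations that may differ only technically.

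Ras is a small GTPase that relays signals from receptor tyrosine kinases such as Egfr and Sevenless to the Raf, MEK and MAPK kinases. In the developing fly eye this pathway recruits photoreceptors, and Sevenless signalling through Ras specifies the R7 photoreceptor. The V12 form is locked in the GTP-bound state, and under sev-GAL4 it is known to give extra R7 cells and rough adult eyes. At the wandering stage the eye disc is also exposed to rising ecdysone, the steroid hormone that starts metamorphosis.

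All 10 eye disc markers were above 1 FPKM in both groups, and their summed level was 606 FPKM in the control and 602 FPKM in RasV12. They ranged from 13.1 FPKM for Optix to 210 FPKM for toy in the control, both of which encode transcription factors of the eye primordium. RNA of the labelled tissue was present in both groups at like levels.

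Most genes differed little between the groups. The median log2 change (RasV12 over control) was 0.04, and 6960 genes, or 77.7%, lay within 1.25-fold of equality. The 5th and 95th percentiles were -0.37 and 0.61, and 58.4% of genes lay above 0. A gene was called where its q-value, taken from the authors' deposited table, was at or under 0.05, and "rose" and "fell" are used of called genes alone. By the authors' deposited values 37 genes rose, 0.413% of the 8962, and 25 fell, 0.279%. The genes that rose did so by a median of 0.99 on the log2 scale, and 20 of the 37 were under 2-fold. The genes that fell had a median absolute log2 change of 1.64, and 5 of the 25 were under 2-fold. At an unadjusted p of 0.05 or less the authors' deposited table held 309 higher genes, 3.45%, and 83 lower genes, 0.926%. Where a called gene is given below with no q, that value was 0.00789, the lowest q of the authors' deposited table.

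**Figure D1:**
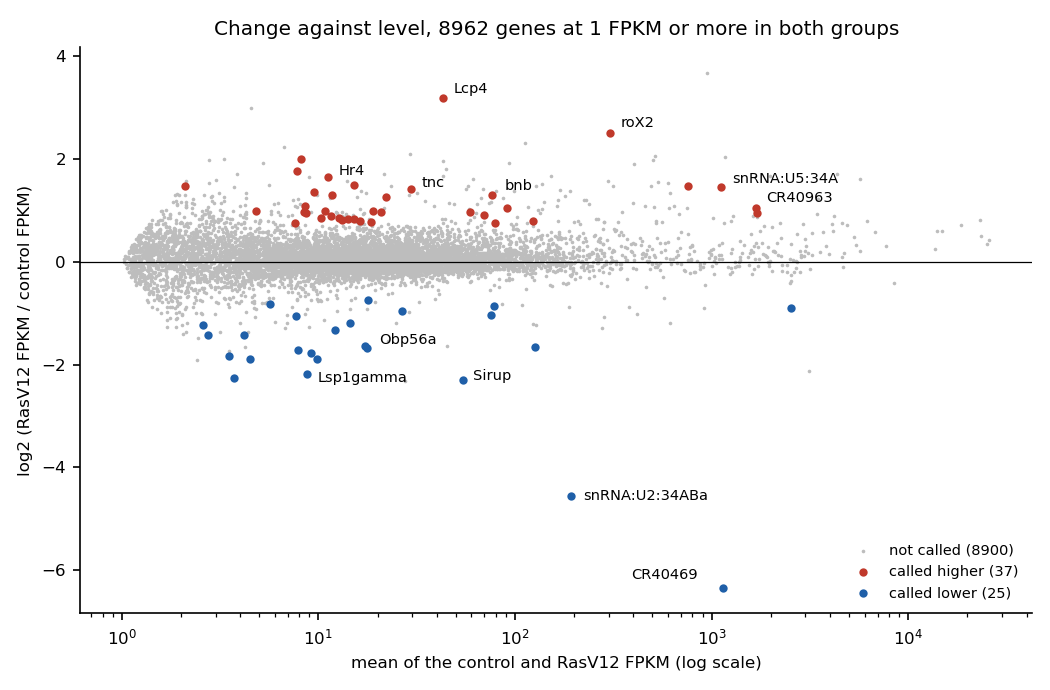
Log2 change (RasV12 FPKM over control FPKM) of 8962 genes against the mean of both pooled levels on a log scale. Red points are the 37 genes called higher and blue points the 25 called lower; Lcp4 and roX2 lie highest among the called genes and CR40469 lowest.

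The transgene's own gene was read as a check of the labels. Ras85D, a protein-coding gene on the minus strand of chromosome 3R (9510561 to 9513067), had 74.4 FPKM in the control and 121 FPKM in RasV12. This log2 change of 0.70 just missed the threshold in the authors' deposited table (q = 0.0509), and reads of the transgene and the endogenous gene cannot be told apart. Sev, whose regulatory sequence drives GAL4 here, was at 22.6 and 28.4 FPKM (chromosome X, 11071441 to 11086299). Hsromega, the heat-inducible long noncoding RNA manipulated elsewhere in the study, was at 543 and 389 FPKM, with p = 0.626 in the authors' deposited table. The casein kinase gene dco was at 37.7 and 40.9 FPKM. In the study's RasV12 groups with hsrω (Hsromega) RNAi and with EP3037, an hsrω insertion, Ras85D was at 151 and 142 FPKM. Against the same control Ras85D was called in each (q = 0.00789, the authors' deposited table). Hsromega was at 398 FPKM with the RNAi and 606 FPKM with EP3037, and was called in neither. Its pooled level in the RNAi group was thus not below the 389 FPKM of RasV12 alone. These groups lack dco2 in their labels.

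No gene of the Ras pathway itself was called, against 0.413% of all genes called higher and 0.279% called lower. At such shares the lack of a call in lists this short, here and below, says little about a pathway. The 8 genes for Egfr ligands and their processing had a median log2 change of 0.09. Among them ru, a rhomboid protease that releases ligands, was at 27.2 FPKM in the control and 41.8 FPKM in RasV12, and aos, the secreted Egfr inhibitor, at 22.4 and 26.8 FPKM. Spi, the main Egfr ligand, was at 133 and 141 FPKM. The 7 receptor tyrosine kinases had a median of -0.03, and the FGF receptor gene htl was at 2.94 and 4.21 FPKM. The 26 genes of the cascade from adaptors to MAPK had a median of 0.06. Ras85D alone among them had an unadjusted p of 0.05 or less by the authors' deposited table. The exchange factor gene Sos was at 12.9 and 14.1 FPKM, the Raf gene phl at 15.6 and 16.4 FPKM, and rl, the MAPK gene, at 79.8 and 87.2 FPKM. The Ras GTPase activator genes Nf1, at 12.1 and 14.7 FPKM, and RasGAP1, at 39.2 and 44.5 FPKM, were not called either.

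The 11 measured genes of the list of feedback regulators and Ets factors had a median log2 change of 0.18 and none was called. The list also holds other regulators, such as mirr and cic. Several of them are familiar transcriptional readouts of the pathway. Of the inhibitor genes, sty was at 40.4 FPKM in the control and 49.8 FPKM in RasV12, and kek1 at 51.1 and 53.8 FPKM. The MAPK phosphatase gene Mkp3 was at 28.2 and 25 FPKM. The row CG4434,pnt, which holds the Ets activator gene pnt, was at 38.4 and 43.5 FPKM, and aop, the Ets repressor, at 68.1 and 88.0 FPKM. The authors' deposited table gave 3 of the 11 an unadjusted p of 0.05 or less, none of them an Ets factor. For mirr, an Iroquois transcription factor of the dorsal eye, the levels were 7.95 and 12.9 FPKM (p = 0.002, the authors' deposited table). Rno, a nuclear antagonist of Egfr signalling, was at 14.5 and 22.4 FPKM (p = 0.00505, the authors' deposited table). Cic, the repressor relieved by MAPK, was at 35.2 and 49.8 FPKM (p = 0.0404, the authors' deposited table).

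Genes of photoreceptor fate moved little. The 24 measured members had a median log2 change of 0.16, 15 were above 0, and none was called. The row CG44037,svp, which holds the orphan receptor gene svp of outer photoreceptors, was at 9.26 FPKM in the control and 14.7 FPKM in RasV12. Its p was 0.0038 in the authors' deposited table. Of the zinc finger genes, scrt was at 29.9 and 46 FPKM and salm at 11.6 and 16.6 FPKM, with p-values of 0.0183 and 0.0141 in the authors' deposited table. Pros, a homeodomain gene of R7 and cone cells, was low, at 3.28 and 5.20 FPKM. The R7 genes phyl, at 10.5 and 11.0 FPKM, and sina, at 27.6 and 29.2 FPKM, which act downstream of Ras to remove the repressor Tramtrack, differed by less than 1.25-fold. The R8 gene sens was at 8.85 and 8.27 FPKM, and boss, the R8 ligand of Sevenless, at 1.84 and 1.76 FPKM. In whole discs, fewer cells of a type and less RNA per cell cannot be told apart, here and in every comparison that follows.

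Cone and pigment cell precursor genes had a median log2 change of 0.17 over 10 members, retinal determination genes 0.01 over 13 and furrow and proneural genes -0.08 over 15. None of them was called. Ct, a homeobox gene of cone cells and antenna, was at 9.27 and 13.6 FPKM, with p = 0.0116 in the authors' deposited table. Eya, a phosphatase of the eye determination network, was at 111 and 128 FPKM, and h, a furrow repressor, at 41.5 and 33.9 FPKM. None of the 19 Notch, 18 Hedgehog and Dpp, 16 Wingless, 17 Hippo, 13 JNK, 12 apoptosis or 34 cell cycle genes was called. The medians of these lists lay between -0.07 and 0.07, and by the authors' deposited table Cuffdiff's unadjusted p was 0.05 or less for 2 Notch, 2 Wingless and 2 Hippo genes and for 0 genes of the other 4 lists. Within the Hippo list the cadherin gene ds was at 45.5 and 70.2 FPKM (p = 0.0144) and kibra at 5.64 and 8.24 FPKM (p = 0.0118), per the authors' deposited table. Among 19 insulin and TOR genes, Thor, the translation inhibitor 4E-BP, was at 8.85 and 17.4 FPKM, with p = 0.00385 in the authors' deposited table, and was not called.

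**Figure D2:**
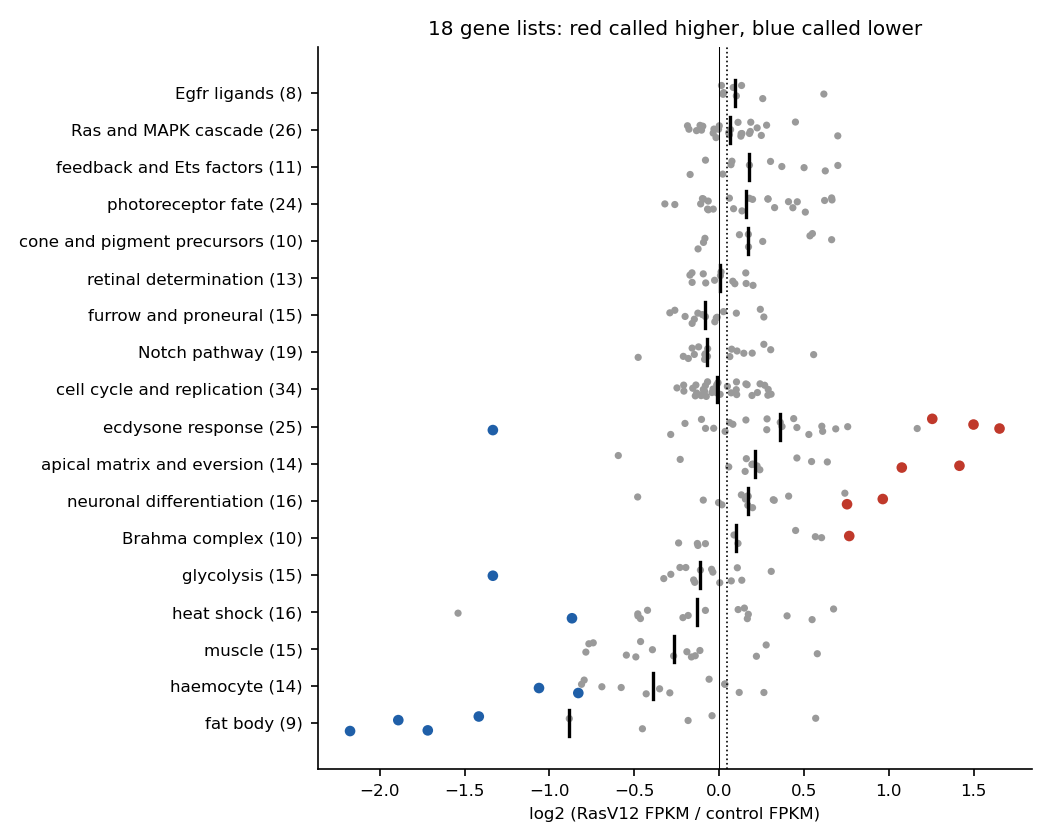
Log2 change (RasV12 over control) of each member of 18 gene lists, with the number of members in brackets. Black bars mark list medians, the dotted line the median of all 8962 genes, 0.04, and red and blue points genes called higher and lower; the ecdysone list holds 3 red points and the fat body list 4 blue ones.

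Ecdysone response genes included some of the largest rises. Of 25 measured members 3 rose and 1 fell, against 0.413% and 0.279% of all genes, and the list's median log2 change was 0.36 against 0.04. The nuclear receptor gene Hr4 (chromosome X, 1941940 to 2009364, plus strand, overlapping 1 other row) went from 5.40 to 17.0 FPKM, a log2 change of 1.65. The row CG12912,Hr46 (chromosome 2R, 10203995 to 10237348, minus strand) went from 7.92 to 22.4 FPKM. It holds Hr46, also called Hr3, an ecdysone-induced receptor needed to switch on ftz-f1. Blimp-1 (chromosome 3L, 5630983 to 5652094, plus strand) went from 13 to 31 FPKM and encodes an ecdysone-induced repressor of ftz-f1. The 3 genes that rose are ones known to be induced in the late larval ecdysone response.

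Other members of the ecdysone list were not called. ImpE1, an ecdysone-inducible disc gene, was at 46.5 and 105 FPKM (p = 0.00795), ImpL1 at 3.72 and 6.29 FPKM (p = 0.0438) and Eip93F at 1.05 and 1.70 FPKM (p = 0.023), per the authors' deposited table. Br, the Broad Complex gene, was at 260 and 397 FPKM and Eip75B at 39 and 52.9 FPKM. The receptor gene EcR was at 65.6 and 57.1 FPKM, and ftz-f1, which acts after the pulse, at 5.45 and 4.47 FPKM. The pooled levels of these regulators thus lay on both sides of the control, with none called. The gene that fell was ImpL3, lactate dehydrogenase (chromosome 3L, 6259105 to 6262694, minus strand), from 17.4 to 6.92 FPKM.

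The 3 rises of the ecdysone list were found in long transcripts, with longest annotated isoforms of 12551 nt for Hr4, 7925 nt for Hr46 and 7517 nt for Blimp-1. With the trend of log2 change on transcript length subtracted, their log2 changes were 1.34, 1.31 and 1.08. The levels of these genes in the study's other groups are set beside the same control, 1 pooled value each, with no difference from RasV12 alone tested here. In the RasV12 samples that also carried hsrω RNAi, Hr4 was at 20.2, the Hr46 row at 18.1 and Blimp-1 at 32.9 FPKM. Against the control none of them was called there, with q-values of 0.383, 0.117 and 0.0545 in the authors' deposited table. In those that carried EP3037, an insertion labelled as raising hsrω, these genes were at 7.30, 9.08 and 13.4 FPKM, near the control, and none was called. These groups lack dco2 in their labels, so dco2 and hsrω cannot be told apart as sources of a difference from RasV12 alone.

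Genes of ecdysone synthesis, which in larvae takes place in the ring gland, were not called. Their median log2 change was 0.48 over 9 members, 8 of 9 were above 0, and 1 had an unadjusted p of 0.05 or less in the authors' deposited table. The Halloween gene sad was at 30.8 and 42.8 FPKM, spok at 42.0 and 53.9 FPKM and phm at 28.4 and 35.5 FPKM. The 5 ring gland markers summed to 112 FPKM in the control and 145 FPKM in RasV12. None of them was at 0, and their part in the ecdysone result was not tested.

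Cuticle and apical matrix genes held the largest rise among genes at 1 FPKM or more in both groups. Lcp4, a larval cuticle protein (chromosome 2R, 8437647 to 8438495, plus strand), was at 8.51 FPKM in the control and 77.9 FPKM in RasV12, 9.15-fold higher. It was at 2.83 FPKM in the RNAi group and 16.4 FPKM in the EP3037 group, so RasV12 alone stood above the other 3 groups. Of 33 measured cuticle protein genes Lcp4 alone was called, against 0.413% of all genes called higher, and the median log2 change of the family was 0.16. Cpr47Eg was at 1.02 and 8.12 FPKM (p = 0.00735) and Lcp1 at 4.33 and 13.6 FPKM (p = 0.00855), per the authors' deposited table, and neither was called. Lcp3 and Lcp4 are similar copies, among which reads may be split uncertainly.

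Of 14 apical matrix and disc eversion genes 2 rose and none fell, against 0.413% and 0.279% of all genes, with a median log2 change of 0.21. Tnc, a large secreted mucin-like ligand of integrins (chromosome 3R, 24984384 to 25022867, plus strand), went from 16.1 to 42.9 FPKM. Np, a transmembrane serine protease of leg and wing morphogenesis (chromosome 2R, 8992945 to 9006587, minus strand), went from 5.49 to 11.6 FPKM. The giant matrix protein gene dp was at 18.9 and 29.5 FPKM, with p = 0.048 in the authors' deposited table. The chitinase gene Cht7 was at 10.2 and 6.79 FPKM, the lowest log2 change of the list at -0.59. Among 13 measured serpins, inhibitors of serine proteases, 2 rose, against 0.413% of all genes. These were Spn100A, from 6.82 to 16.7 FPKM, and Spn43Aa, from 48.7 to 91.0 FPKM. The matrix gene tnc was at 40.9 FPKM in the RNAi group and 14.1 FPKM in the EP3037 group, and Np at 15.1 and 4.98 FPKM. Both genes were thus high in RasV12 and in the RNAi group and lay just below the control in the EP3037 group.

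**Figure D3:**
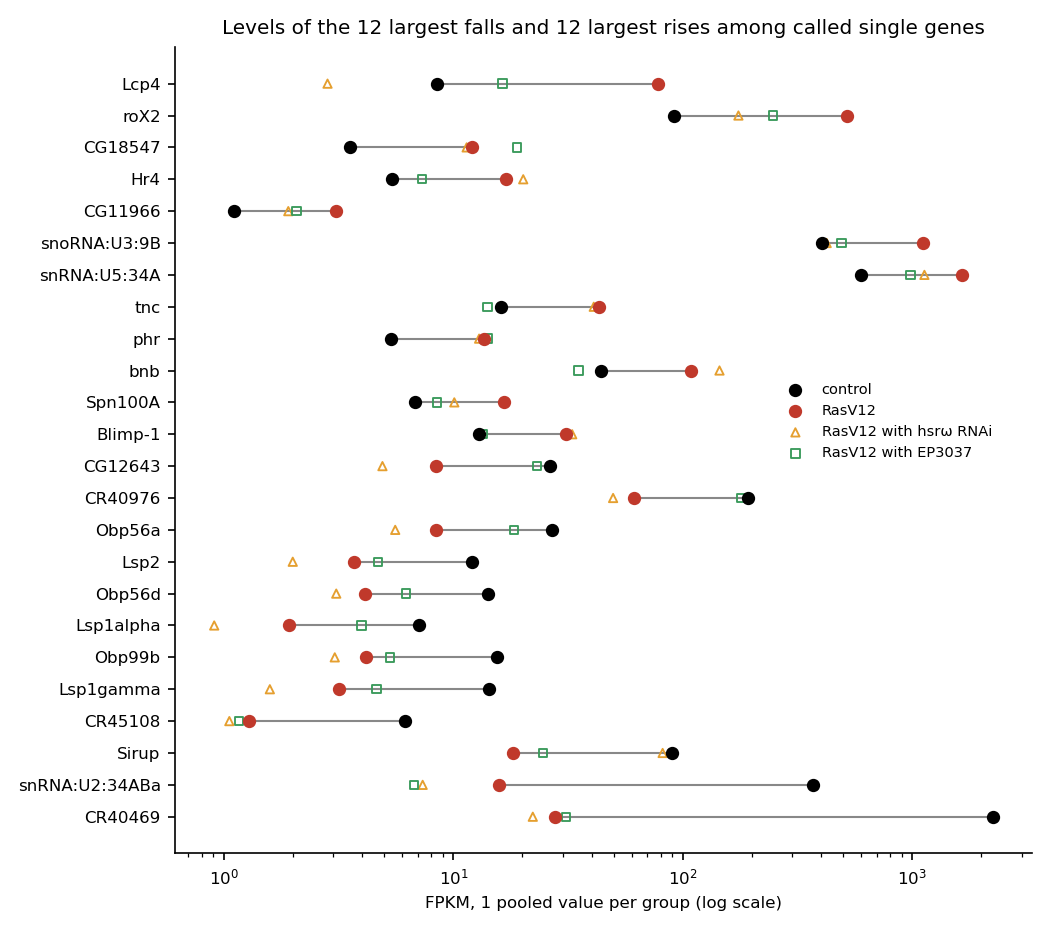
Pooled FPKM on a log scale of the 12 called single genes with the largest rises and the 12 with the largest falls. Black circles are the control, red circles RasV12, open triangles RasV12 with hsrω RNAi and open squares RasV12 with EP3037; lines join control and RasV12. For CR40469 the 3 groups with RasV12 lie between 22.2 and 31 FPKM and the control at 2249 FPKM.

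Neuronal genes gave 2 rises among 16 measured members, against 0.413% of all genes, and a median log2 change of 0.17. The row Gr2a,futsch, which holds the gene for the microtubule-associated protein Futsch, went from 14.2 to 27.6 FPKM (q = 0.0192, the authors' deposited table). Brp, the scaffold of presynaptic active zones, went from 5.67 to 9.57 FPKM (q = 0.0284, the authors' deposited table). Both have very long transcripts, 22255 and 11924 nt. After subtraction of the length trend their log2 changes were 0.52 and 0.46, below the smallest change of any called gene, and the calls were not kept. The pan-neuronal gene elav was at 41.8 and 48.0 FPKM and Syt1, a synaptic vesicle protein, at 4.22 and 4.70 FPKM. The 4 markers of brain neurons, which include brp itself and Syt1, summed to 19.3 FPKM in the control and 23.2 FPKM in RasV12. The remaining markers were nSyb, at 8.23 and 7.72 FPKM, and the row Cha,VAChT, at 1.23 and 1.22 FPKM. The higher sum thus rested mainly on the called gene brp, and the part of brain neurons in these calls was not tested. Jeb, a secreted ligand of the receptor Alk, was at 4.50 and 7.53 FPKM (p = 0.00295, the authors' deposited table).

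Glial genes had a median log2 change of 0.05 over 9 members, and 1 of them rose, against 0.413% of all genes. The one that rose was bnb, first described in embryonic glia (chromosome X, 18788464 to 18806363, minus strand, overlapping 3 other rows), from 43.9 to 109 FPKM. The glial identity gene repo was at 4.66 and 4.47 FPKM and loco at 27.2 and 23.1 FPKM. Levels of bnb were 144 FPKM in the RNAi group and 35.1 FPKM in the EP3037 group.

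Chromatin and RNA-binding lists held a single call. Of 10 Brahma complex genes 1 rose, against 0.413% of all genes. This was Bap170, a subunit of the PBAP form, from 13.8 to 23.4 FPKM (q = 0.0469, the authors' deposited table). With the length trend subtracted its log2 change was 0.68, and the call was not kept. The complex genes osa, at 31.8 and 48.3 FPKM, and brm, the ATPase, at 25.6 and 38 FPKM, had p-values of 0.0139 and 0.0115 in the authors' deposited table. The list's median was 0.10. None of 16 hnRNP and omega speckle genes was called. Their median was 0.20, and sm, an hnRNP L homologue, was at 10.7 and 21.9 FPKM (p = 0.0015, the authors' deposited table). None of 16 Polycomb group or 11 SR protein genes was called, with 2 and 1 of them at an unadjusted p of 0.05 or less in the authors' deposited table.

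Further genes that rose, most of them named after their values were seen, included signalling and cytoskeletal genes with long transcripts. PDZ-GEF, an exchange factor for Rap1, went from 12.0 to 20.6 FPKM (q = 0.0284), Mrtf, a coactivator of serum response factor, from 7.22 to 14.3 FPKM, and Dscam1, an axon guidance receptor, from 5.74 to 11.2 FPKM (q = 0.0192), per the authors' deposited table. The ubiquitin protease gene puf went from 11.0 to 19.5 FPKM and mfas, a fasciclin-like adhesion gene, from 10.2 to 18.2 FPKM, each with q = 0.0284 in the authors' deposited table. CG3523, fatty acid synthase, went from 12.8 to 25.3 FPKM. Robl, a dynein light chain with a short transcript of 527 nt, went from 89.9 to 157 FPKM (q = 0.0469, the authors' deposited table). Phr, a photolyase, went from 5.37 to 13.7 FPKM. After subtraction of the length trend the log2 changes of PDZ-GEF, Dscam1, puf and robl were 0.63, 0.73, 0.51 and 0.60, under the smallest change of any called gene, 0.75, and these calls were not kept. GstD3, a glutathione transferase, went from 40.3 to 78.4 FPKM, and GstD1, of the same gene cluster, was at 415 and 707 FPKM (p = 0.0008, the authors' deposited table).

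Fat body products formed a group among the falls. Of 9 measured fat body genes 4 fell, against 0.279% of all genes, and the list's median log2 change was -0.88. The larval serum protein genes, whose storage proteins are secreted into the blood, were low in both groups. Lsp1gamma was at 14.3 FPKM in the control and 3.17 FPKM in RasV12, Lsp1alpha at 7.10 and 1.91 FPKM and Lsp2 at 12.1 and 3.68 FPKM. Fbp1, the fat body receptor for these proteins, was at 6.06 and 2.27 FPKM. The row CG42847,Fbp2 was at 4.58 and 2.48 FPKM and Lsp1beta at 6.65 and 4.86 FPKM, and neither was called. These 6 genes are the defining markers, all above 0 in both groups, and they summed to 50.8 FPKM in the control and 18.4 FPKM in RasV12. The rest of the measured list was not called, with the row Adh,Adhr at 15.8 and 23.4 FPKM, Mtp at 13.8 and 13.4 FPKM and Lsd-1 at 3.97 and 3.49 FPKM. All rows of the fat body list together summed to 86.9 FPKM in the control and 59.9 FPKM in RasV12. Fat body genes are known for very high levels in fat body itself, and no gate separated disc cells from attached tissue. The part of attached fat body in these falls was not tested.

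Haemocyte genes gave 2 falls among 14 members, against 0.279% of all genes, with a median log2 change of -0.39. The row CR45660,Pxn, which holds the gene for the extracellular matrix enzyme peroxidasin, went from 10.4 to 5.00 FPKM. Hml, the haemocyte clotting protein hemolectin, went from 7.29 to 4.10 FPKM (q = 0.0192, the authors' deposited table). In the RNAi and EP3037 groups Hml was at 10.8 and 9.67 FPKM, above the control. Eater, a phagocytic receptor, was at 2.47 and 1.41 FPKM, whereas the crystal cell genes PPO1, at 37.0 and 37.8 FPKM, and PPO2, at 24.1 and 26.2 FPKM, differed little. The 7 haemocyte markers summed to 84.9 FPKM in the control and 75.6 FPKM in RasV12, and none was at 0. PPO1 and PPO2 made up most of both sums. NimC1 was at 2.20 and 0.322 FPKM (p = 0.0006, the authors' deposited table) and the row CR44133,srp at 1.48 and 0.723 FPKM. Both were under 1 FPKM in RasV12, and neither was called.

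Muscle genes were not called, although 12 of 15 were below 0, 4 of those with an unadjusted p of 0.05 or less in the authors' deposited table, and the median log2 change was -0.27. Mlc2, a myosin light chain, was at 24.6 and 14.3 FPKM (p = 0.0009) and Tm2, a tropomyosin, at 13.0 and 7.65 FPKM (p = 0.0109), per the authors' deposited table. The 5 muscle markers summed to 96.9 FPKM in the control and 74.0 FPKM in RasV12. Salivary glue genes were low, 4 of them passed the floor, and Sgs7 was at 15.1 and 9.60 FPKM while Sgs8 was at 1.91 and 3.73 FPKM. The 5 salivary markers summed to 23.7 FPKM in the control and 17.3 FPKM in RasV12. Of 8 cell types or tissues other than the disc, 6 thus had lower marker sums in RasV12. Glial markers summed to 37.9 and 34.8 FPKM and tracheal markers to 247 and 229 FPKM, with none of them called. Both lower sums rested mainly on single genes, loco at 27.2 and 23.1 FPKM and serp at 101 and 79.3 FPKM. The glial marker moody, at 5.82 and 7.07 FPKM, and the tracheal marker verm, at 140 and 145 FPKM, were higher in RasV12. The sums of ring gland and brain neuron markers were higher, the latter mainly through the called gene brp. The part of these 8 in the other falls was not tested. Leaving out the defining markers of these 8 left 19 genes called lower and 36 called higher. Leaving out instead the longer gene lists of fat body, haemocytes, muscle, glia, salivary gland, trachea, ecdysone synthesis and antenna, with odorant-binding protein and digestive enzyme genes, left 16 and 36.

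**Figure D4:**
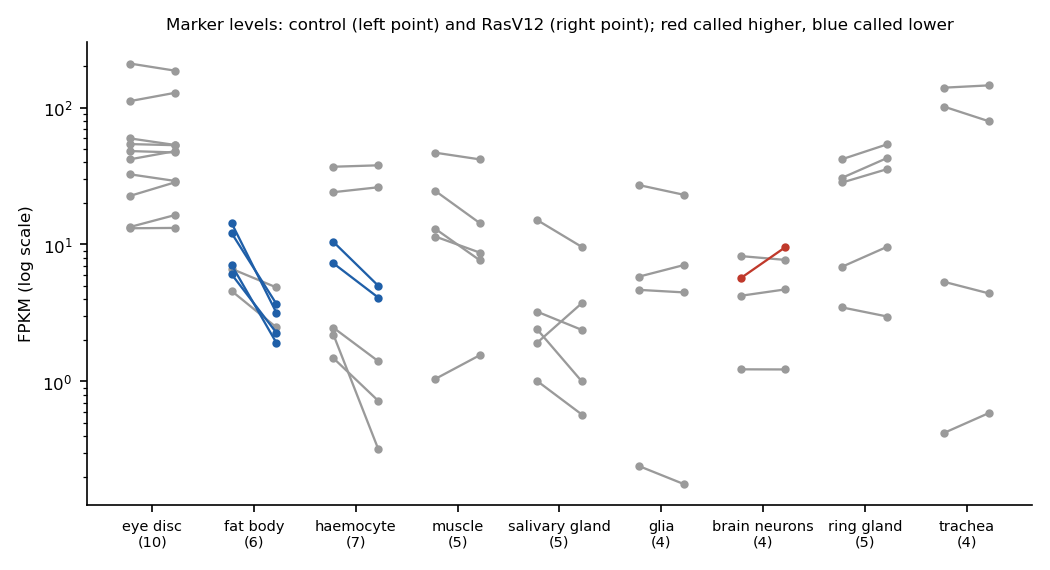
Pooled FPKM on a log scale of markers of the eye disc and of 8 other cell types or tissues, with the number of markers in brackets. Each line joins a marker's control level (left) and RasV12 level (right), blue for called lower and red for called higher; the eye disc lines stay level while the 6 fat body lines all slope down.

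Odorant-binding protein genes fell in 3 of 10 measured cases, against 0.279% of all genes, and the family's median log2 change was -0.11. Obp56a (chromosome 2R, 19697723 to 19698508, plus strand) was at 26.9 and 8.38 FPKM, and its neighbour Obp56d (chromosome 2R, 19702924 to 19703915, minus strand) at 14.1 and 4.12 FPKM (q = 0.0359, the authors' deposited table). Obp99b was at 15.5 and 4.17 FPKM (q = 0.0399, the authors' deposited table). These small secreted proteins carry hydrophobic ligands and are not restricted to antennae. The most abundant member, Obp99a, was at 327 and 397 FPKM and was not called.

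Metabolic and stress genes gave isolated falls. ImpL3 was the only 1 of 15 glycolysis genes to fall, against 0.279% of all genes. Its level was 35.8 FPKM in the RNAi group and 9.16 FPKM in the EP3037 group, so it was high in the control and RNAi groups and low in RasV12 and EP3037. The other glycolysis genes lay between log2 changes of -0.33, for the enolase gene Eno at 226 and 180 FPKM, and 0.31, for the aldolase gene Ald at 47.7 and 59.1 FPKM. Sirup, an assembly factor of succinate dehydrogenase (chromosome 2L, 7998869 to 8004286, plus strand, overlapping 1 other row), went from 90.1 to 18.3 FPKM. Sirup shared the pattern of ImpL3, with 81.6 FPKM in the RNAi group and 24.7 FPKM in the EP3037 group. The row CG45087, named after its values were seen, was likewise low in RasV12 and EP3037, at 20.2, 8.88, 21.5 and 9.02 FPKM in control, RasV12, RNAi and EP3037.

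Among 16 measured heat shock genes 1 fell, against 0.279% of all genes, and the list's median log2 change was -0.13. This was DnaJ-1, an Hsp40 cochaperone, from 101 to 55.4 FPKM (q = 0.0192, the authors' deposited table). Hsp68 was at 33.8 and 11.6 FPKM and was not called (p = 0.108, the authors' deposited table). Hsp70Bb was at 12.2 and 19.4 FPKM (p = 0.00695), while its copy Hsp70Bc, under 1 FPKM in RasV12, fell from 3.70 to 0.567 FPKM in the authors' deposited table. These Hsp70 copies are near-identical, so the split of reads between them is uncertain. Hsf, the heat shock transcription factor gene, was at 40.6 and 29.2 FPKM, and the abundant Hsp23 was at 2427 and 2139 FPKM and Hsp83 at 835 and 721 FPKM.

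Further falls concerned a protease, a ribosomal protein and unnamed genes. The row kuz,mir-2489 went from 102 to 49.3 FPKM; kuz encodes the ADAM metalloprotease that cleaves Notch, and the row overlaps 3 others. In the RNAi and EP3037 groups this row was at 71.6 and 69.9 FPKM. The row RpL28,snoRNA:Or-CD11a,snoRNA:Or-CD11b went from 3287 to 1758 FPKM. It was the only 1 of 85 cytosolic ribosomal protein rows to be called, against 0.279% of all genes called lower, and the family's median log2 change was 0.09. Since the row includes snoRNAs inside the host gene, the RpL28 mRNA cannot be separated. CG12643, an unnamed protein-coding gene on chromosome X, went from 26.3 to 8.42 FPKM and stood at 4.91 and 23.2 FPKM in the RNAi and EP3037 groups. Genes of low level that fell, named after their values were seen, included Dscam4, an adhesion receptor, which went from 4 to 1.48 FPKM and TkR86C, a neuropeptide receptor, from 3.64 to 1.56 FPKM (q = 0.0469, the authors' deposited table).

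The largest falls among the 8962 genes were in noncoding RNAs. CR40469 (chromosome X, 122493 to 122706, plus strand) was at 2249 FPKM in the control and 27.8 FPKM in RasV12, 80.9-fold lower. SnRNA:U2:34ABa, a copy of the spliceosomal U2 RNA (chromosome 2L, 13211925 to 13212116, minus strand), was at 370 and 15.8 FPKM. In the RNAi and EP3037 groups CR40469 was at 22.2 and 31 FPKM and snRNA:U2:34ABa at 7.35 and 6.74 FPKM. For both RNAs the control stood far above the 3 groups with RasV12. U2 genes are near-identical copies, and the neighbouring copy snRNA:U2:34ABb was at 43.8 and 80.6 FPKM, so the assignment of reads is uncertain. The antisense RNA CR45108 (chromosome 2R, 7782797 to 7785585, plus strand) fell from 6.17 to 1.29 FPKM and overlaps 1 other row. Counting by strand is not given in the sources used here, so its reads and those of its antisense partner cannot be told apart.

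RoX2 had the largest rise of a noncoding RNA among the 8962 genes. RoX2 is one of a pair of RNAs of the dosage compensation complex, which males assemble on the X chromosome. RoX2 (chromosome X, 11579065 to 11580432, plus strand) was at 91.5 FPKM in the control and 517 FPKM in RasV12, 5.65-fold higher, and at 175 and 247 FPKM in the RNAi and EP3037 groups. RoX1 was at 137 and 314 FPKM, with p = 0.0441 in the authors' deposited table, and was not called. The protein genes of the complex were level, with msl-1 at 22 and 21.6 FPKM and mle at 16.4 and 18.9 FPKM. The row Sxl,mir-4956, which holds the sex-determination gene Sxl, was at 158 and 130 FPKM. The sex of the larvae is not given in the labels, and its part in the roX levels was not tested. The 1484 measured genes of chromosome X had a median log2 change of 0.02, against 0.04 over all genes, with 9 called higher and 4 lower. Leaving chromosome X out left 28 genes called higher and 21 called lower.

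A pair of short X-linked noncoding rows moved in opposite directions within 4.31 kb. CR40963 went from 1091 to 2258 FPKM and CR40976 from 193 to 61.1 FPKM. The RNAi group held 2996 and 49.7 FPKM of these and the EP3037 group 985 and 180 FPKM, so EP3037 stood near the control for both. Between the pair lay a ribosomal RNA row, 5.8SrRNA:CR40454, which was at 0 FPKM and was not tested. The adjoining row CR40962 was at 11145 FPKM in the control and 16799 FPKM in RasV12 and was not called. The libraries were depleted of ribosomal RNA, and the part of this step in these levels was not tested.

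Small nuclear and nucleolar RNAs had positive median log2 changes, and their shares called higher, from few genes, were above that of all genes. The 192 annotated snoRNAs, guides of ribosomal RNA modification, had a median log2 change of 0.52 and 81.8% were above 0. Of these, 2 were called higher, 1.04% against 0.413% of all genes. Their median length was 138 nt, and all transcripts of up to 150 nt had a median log2 change of 0.47. With the trend of log2 change on length subtracted, the snoRNA median was 0.08. Small RNAs are themselves many of the shortest rows on which the trend was fitted. Length and gene type thus cannot be told apart for snoRNAs or for the snRNAs below. SnoRNA:U3:9B, a copy of the U3 RNA of rRNA processing, went from 404 to 1116 FPKM, and snoRNA:Psi28S-3342 from 1154 to 2238 FPKM (q = 0.0240, the authors' deposited table). The latter call was not kept once the length trend was subtracted, at a log2 change of 0.54. The 22 annotated snRNAs had a median of 0.76, or 0.30 with the trend subtracted. Of these, 1 was called higher and 1 lower, 4.55% each, against 0.413% and 0.279% of all genes. The one called higher, snRNA:U5:34A (chromosome 2L, 13244848 to 13244974, plus strand), went from 601 to 1642 FPKM. The minor spliceosome RNAs snRNA:U11, at 2947 and 5440 FPKM, and snRNA:U12:73B, at 2090 and 4882 FPKM, had p-values of 0.0084 and 0.0023 in the authors' deposited table and were not called. Core snoRNP protein genes had a median of 0.34 over 8 members and none was called.

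The change depended on transcript length across all genes. Transcripts of up to 150 nt had a median log2 change of 0.47 and those of 600 to 1000 nt 0.14. Those of 2000 to 4000 nt had a median of -0.01, and those over 8000 nt 0.28. Of 278 protein-coding genes over 8000 nt 85.3% were above 0 and 9 were called higher, against 48.5% above 0 and 5 called higher among 2640 of 2000 to 4000 nt. The genes called higher had a median length of 4141.5 nt and those called lower 2164 nt, against 1909 nt over all genes. With the length trend subtracted, 25 genes remained called higher and 24 lower. CR40963 and CR40976 are counted among these with nothing subtracted, because they had no annotated length. The other calls not kept, beside those named above, were CG31676, CG8677, CG43366 and X11Lbeta among the rises and Ady43A among the falls. These genes were named after their values were seen. Their q-values were 0.0325, 0.0192, 0.00789, 0.0359 and 0.0438 in the authors' deposited table. Genes past 2-fold were then 76 higher and 99 lower, against 141 and 64 before, so the share of higher genes depends on this step. What made the change depend on length was not tested.

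**Figure D5:**
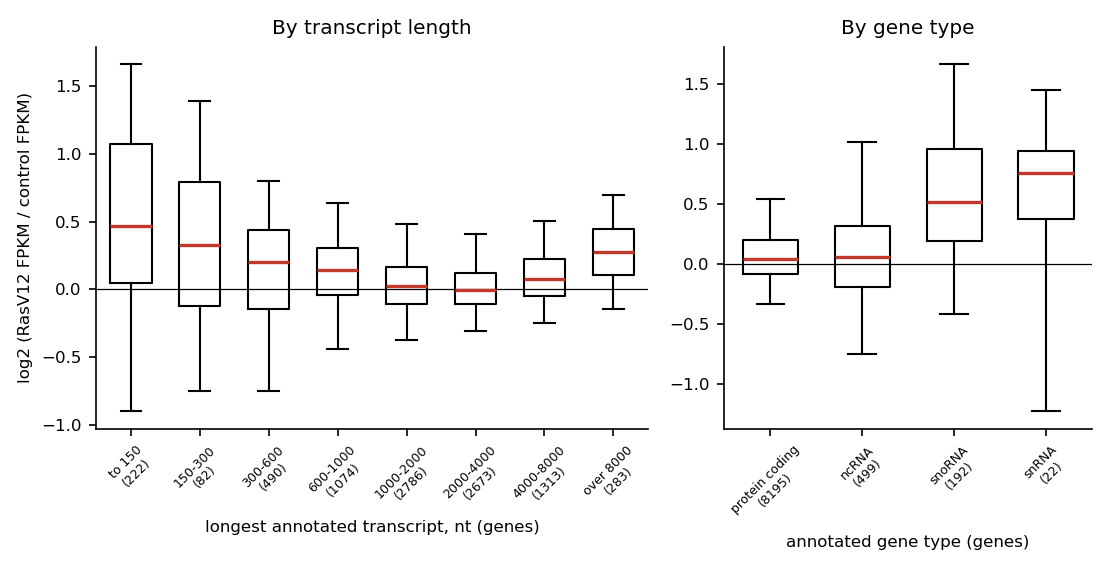
Log2 change (RasV12 over control) by length of the longest annotated transcript (left) and by annotated gene type (right), with the number of genes in brackets. Red lines are medians, boxes the quartiles and whiskers the 5th and 95th percentiles; the medians are highest at both ends of the length scale and for snoRNAs and snRNAs.

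Of the 141 genes past 2-fold higher, 75 had names of snoRNAs, snRNAs, microRNAs or other short RNAs and 17 were called, and of the 64 past 2-fold lower 20 were called. MicroRNA rows had a median log2 change of 0.17 over 69 members, and the only called row among them was that of kuz. The row snoRNA:M,snoRNA:Me28S-G980 had the highest log2 change of the 8962 genes, 3.68, from 138 to 1769 FPKM, and was not called (p = 0.106, the authors' deposited table). Large pooled differences of short RNAs thus often came without a call.

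A further 23 called genes were under 1 FPKM in a group, 9 higher and 14 lower among 2034 tested genes, or 0.442% and 0.688%. Cyp4p2 and Cyp4p1, cytochrome P450 genes in a cluster on chromosome 2R (9227785 to 9247249), rose from 0.47 to 44.8 FPKM and from 0.454 to 10.4 FPKM, with q-values of 0.00789 and 0.0469 in the authors' deposited table. Cyp4p2 was at 40.4 FPKM in the RNAi group and 48.9 FPKM in the EP3037 group. These cluster genes are similar copies whose reads may be shared.

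A run of 6 neighbouring genes on chromosome 3L (22643881 to 22649287) was listed at 0 in RasV12. CR45381, CG33766, CG33767, CG33768, CG33769 and CG33770 were at 0.841 to 1.77 FPKM in the control and at 0 in all 3 groups with RasV12. All 6 were called lower in the authors' deposited table, CG33768 with q = 0.0140. The run spans 5.41 kb and held no other row. Prosbeta2R1, a proteasome subunit gene expressed in testis, was at 1.53 FPKM in the control and listed at 0, while CG6149 had 0 FPKM in the control against 1.89 FPKM in RasV12. Of all 85 called genes 20 lay within 50 kb of another called gene, in 8 runs, and 5 of the runs went in 1 direction.

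At the edge of the 1 FPKM floor, CG13868 and Sgs3 were just inside at 1.00 FPKM in RasV12, and RpS5b was just outside at 0.997 FPKM in the control. Called genes were spread over the major chromosome arms, with 5 higher and 3 lower on 2L, 11 and 6 on 2R, 3 and 10 on 3L, and 9 and 2 on 3R. Chromosome 4, with 81 measured genes, held none.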

How the data were processed

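RNA from the eye discs of 3 control and 3 RasV12 samples was sequenced by the submitters, and per the submitters' processing notes Cuffdiff 2.1.1 was used with Cufflinks, TopHat and Bowtie on the build dm6. The annotation, the strand setting and the other versions were not given in the sources used here. Deposited by the authors were a pooled FPKM for each gene in each group, and a p-value and q-value per gene. The deposited q is adjusted over all tests of the series' 6 comparisons. Depth is unknown, so no interval or floor of detection was computed.

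Log2 changes were computed with Python 3.11.15, pandas 2.3.3 and numpy 2.4.6, with no pseudocount, over rows with status OK and 1 FPKM or more in both groups. A gene was called at a deposited q of 0.05 or less, and no test of its own could be fitted to pooled values. Rows were matched by name or locus to Ensembl release 115 (BDGP 6), which matched 8923 of the 8962 rows and gave strand, gene type and transcript length. Starts and ends are the authors', on dm6, counted from 1. Of the 8962 rows 457 name several genes and are printed with all names, and 4605 overlap another row, so that their reads may be shared. The length trend was a lowess curve (fraction 0.3, statsmodels 0.14.6) of log2 change on log transcript length; a call was kept where its sign stayed and its size was at least that of the smallest called change. No q was recomputed with the trend subtracted, so a call was kept or not by size alone. Calls near the smallest called change could be lost through a small shift, as with Ady43A, from -0.751 to -0.746. The scripts were tested on simulated data.

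The genes named were Ras85D, sev, Hsromega and dco, the 12 called single-gene rows that rose most and the 12 that fell most, called genes in any of 39 gene lists or 21 name-based families, of which tRNA and mitochondrial genome genes had no row that was described, the 6 called genes of highest level, up to 3 genes per list of largest change, up to 4 called genes listed at 0 and 3 on each side of the floor. Genes given beyond these were chosen after their values were seen. The genes and lists were chosen with earlier results of these data known. Alternatives changed the floor, the threshold, the adjustment, the pseudocount, the scaling and the rows included.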

Additional observations from a re-analysis of the deposited data

How the results depend on the processing

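No paired analysis was possible because the deposited values are pooled over the 3 samples of a group, and for the same reason no sample could be left out in turn. The counts called, 37 higher and 25 lower, were 35 and 22 when the p-values were adjusted over this comparison alone. At a q of 0.01 or less 21 genes were higher, and at an unadjusted p of 0.05 or less 309 were higher and 83 lower. With a floor of 5 FPKM 14 were lower, and leaving out the gene lists and families of other tissues, tried once the data had been seen, 16. The median log2 change of 0.0448 was 0.0362 with a floor of 5 FPKM, 0.0385 in protein-coding genes alone and -0.00693 with the length trend subtracted. The SD of log2 change over genes, 0.35, was 0.57 with no floor. Genes past 2-fold higher, 141, were 87 with a floor of 5 FPKM, 394 with no floor, 54 in protein-coding genes and 76 with the length trend subtracted. Genes past 2-fold lower, 64, were 116 with a floor of 0.5 FPKM, 24 with 5 FPKM, 319 with no floor, 39 with a pseudocount of 1 FPKM, 39 in protein-coding genes and 99 with the length trend subtracted. Of the 40 called genes named by the fixed rules, 36 kept their call with the length trend subtracted. Outside these rules PDZ-GEF, Dscam1, puf, robl, CG31676, CG8677, CG43366, X11Lbeta and Ady43A did not, while the other called genes did. CR40963 and CR40976 were among the 36 with nothing subtracted, having no annotated length. The cause of these shifts was not tested. Pooled values and unknown depth limit every comparison, and a gene that missed the threshold is not shown to be equal.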

Other observations

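Housekeeping complexes were close to the control. None of 73 mitochondrial ribosomal protein genes, 33 proteasome genes or 16 respiratory chain genes was called, and their median log2 changes (RasV12 over control) were 0.14, 0.08 and 0.11. With the length trend subtracted the medians were 0.00423, 0.0317 and -8.6e-05. Among 85 cytosolic ribosomal protein rows, RpL38 was at 909 FPKM in the control and 1674 FPKM in RasV12 (p = 0.0061, the authors' deposited table).

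Of 27 cytochrome P450 genes at 1 FPKM or more in both groups none was called, and the called Cyp4p1 and Cyp4p2 lay under this floor in the control. Cyp6a17 was at 15.5 FPKM in the control and 9.47 FPKM in RasV12 (p = 0.0049, the authors' deposited table), and its relative Cyp6a23 at 2.59 and 1.20 FPKM (p = 0.014, the authors' deposited table). None of 17 immune genes was called, and their median log2 change was 0.05. Of 9 basement membrane genes none was called, and LanB2, a laminin chain, was at 26.4 and 36.8 FPKM (p = 0.0209, the authors' deposited table).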
